A study of Homo sapiens with 12 samples.

Results

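Translation initiation factors are the proteins that load a ribosome onto an mRNA, and the 39 genes described here encode them, grouped by complex: eIF1 with eIF2 and eIF2B, eIF3, eIF4 with the 4E-binding proteins, and eIF5 with eIF6. A gene was a member when its called coding open reading frames (ORFs) lay inside the protein-coding RefSeq gene of that name, and each codon was counted once. This held for 34 of the 39: 11 of 11 in eIF1/2/2B, 12 of 13 in eIF3, 9 of 12 in eIF4 with the 4E-binding proteins and 2 of 3 in eIF5/6. These 34 were all among the 4765 genes tested, out of 6375 genes with a coding ORF. For EIF3K and EIF4EBP1 the called ORF began 45 and 26 nt before the RefSeq gene, and for EIF4A1 the identifier also held an ORF of a neighbouring gene. Their values are given beside the others and are in no count of called genes, though the reading of mRNA starts covers listed genes, EIF3K among them. EIF4G3 and EIF5B were not analysed here. The EIF2S1 ORF also lies within the span of a second gene, GPHN.

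The cells were HEK293, an established human embryonic kidney line, and their ribosome footprints (the mRNA pieces a ribosome shields from nuclease) were sequenced from pooled gradient fractions. The monosome fraction holds mRNAs with 1 ribosome, and the polysome fraction holds mRNAs with several. Cells were in log phase in medium with serum, deprived of serum for 2 h, or deprived of amino acids for 1 h in a salt solution with vitamins and serum. Each of the 6 groups had 2 libraries, A and B, 12 in all. No label says that A and B were separate cultures, so every p measures the spread between these libraries only.

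The coding footprints numbered 119885 to 346217 in the monosome libraries and 1493886 to 5313475 in the polysome libraries. Libraries with the letter A stood apart from those with B, and the initiation factors moved with the letter: they held a lower share of coding footprints in A than in B in each of the 6 groups. They took 0.766 to 1.36% of the coding footprints in the 3 polysome A libraries and 1.45 to 1.74% in the 3 polysome B libraries. A model term for the letter, called the letter block below, was therefore fitted beside the model without it. Of 6 HEK293 marker genes 4 had a coding ORF, and KRT18 and INA had none. The 4 were NEFM, VIM and LIN28B, with 26229, 2360 and 1096 footprints over all libraries, and KRT8, with only 19.2. Of 7 markers of blood, fibroblast, liver and endothelial cells 1 had one, COL1A1, with 51.8 footprints over all libraries. A footprint level follows both the amount of an mRNA and its translation, which cannot be told apart here. Levels are given as scaled footprints, the count per 1000000 footprints of the scaled library, so a level also depends on what else a library holds.

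In initiation, eIF2 carries the first methionyl-tRNA to the small ribosomal subunit, and eIF2B recharges eIF2 with GTP. eIF1 and eIF1A keep the scanning subunit open until it meets a start codon, and eIF3, the largest of the factors, holds subunit, mRNA and the other factors together. eIF4E binds the mRNA cap, eIF4G is the scaffold, eIF4A unwinds the leader with the help of eIF4B or eIF4H, and the 4E-binding proteins keep eIF4E from eIF4G. Amino acid shortage is known to act on eIF2 through its phosphorylation by GCN2, and on eIF4E through mTOR and the 4E-binding proteins. mRNAs that begin with a C followed by pyrimidines, the terminal oligopyrimidine or TOP mRNAs, are a known target of mTOR.

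The start of the mRNA was read for 32 of the 39 genes, from RefSeq (GRCh38.p14). It was not read for EIF2S2, EIF3A, EIF3E, EIF3G, EIF3H, EIF3L and EIF4EBP1. A tract, defined as a C at the first transcribed base with at least 4 pyrimidines (C or T) after it, stood at the start of 7 of them. This is 21.9% of the 32, against 9.08% of 3699 tested genes and 4.54% of 22199 entries of protein-coding genes. In eIF3 it was 4 of 8 genes, in eIF4 with the 4E-binding proteins 2 of 11, in eIF1/2/2B 1 of 10 and in eIF5/6 0 of 3. The windows below give 10 bases before the RefSeq start and 20 from it, 5′ to 3′, because the tract is the feature that mTOR control is known to read. The tract is in capitals, and the last 3 genes, which have none, are shown for comparison.
EIF2S3: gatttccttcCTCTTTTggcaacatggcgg
EIF3D: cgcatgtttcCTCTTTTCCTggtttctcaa
EIF3F: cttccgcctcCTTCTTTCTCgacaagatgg
EIF3K: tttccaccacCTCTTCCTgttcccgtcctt
EIF3M: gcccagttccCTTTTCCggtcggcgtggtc
EIF4A2: gcgccgctgtCTTTTCagtcgggcgctgag
EIF4B: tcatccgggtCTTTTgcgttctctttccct
EIF1AX: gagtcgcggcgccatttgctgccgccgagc
EIF2B1: gtacggaagtgcgccggaagtggggtgcgg
EIF3I: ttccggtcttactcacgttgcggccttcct
The windows of EIF2S3 (chrX:24054946-24054975), EIF3F (chr11:7987327-7987356), EIF3K (chr19:38619178-38619207), EIF3M (chr11:32583821-32583850), EIF4A2 (chr3:186783567-186783596), EIF4B (chr12:53006446-53006475) and EIF3I (chr1:32222397-32222426) are on the plus strand. Those of EIF3D (chr22:36529147-36529176), EIF1AX (chrX:20141819-20141848) and EIF2B1 (chr12:123633667-123633696) are on the minus strand. The tract was 10 bases long in EIF3D and EIF3F, 8 in EIF3K, 7 in EIF2S3 and EIF3M, 6 in EIF4A2 and 5 in EIF4B. A tract in a RefSeq start is a description of letters, since real starts in these cells were not mapped here.

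The first comparison asks which initiation factor genes had higher or lower scaled footprints in monosomes than in polysomes, averaged over the 3 conditions. Each library is scaled to its own size. A higher level in monosomes therefore does not mean that most of an mRNA sat with 1 ribosome. Without the letter block 6 of 34 genes were higher in monosomes and 11 were lower (edgeR quasi-likelihood test, Benjamini-Hochberg adjusted p under 0.05). Of all 4765 tested genes 17% were higher and 21.8% lower, 38.8% in all. The split over all genes moved with the scaling, from 811 higher and 1038 lower here to 931 and 842 under RLE scaling and 1014 and 909 with DESeq2. Of the members 6 and 9 passed under RLE scaling, and 7 and 11 with DESeq2. The share of higher members is near that of genes in general, and the share of lower members is above it. With the block 10 were higher and 13 lower, where 23.9% and 30.3% of all genes were, 54.2% in all. The median log2 change was -0.24 over the 34 genes and -0.18 over all genes. All 6 monosome libraries lay above all 6 polysome libraries for 3 members (9.49% of all genes did so) and below them for 7 (12% of all genes).

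**Figure D1:**
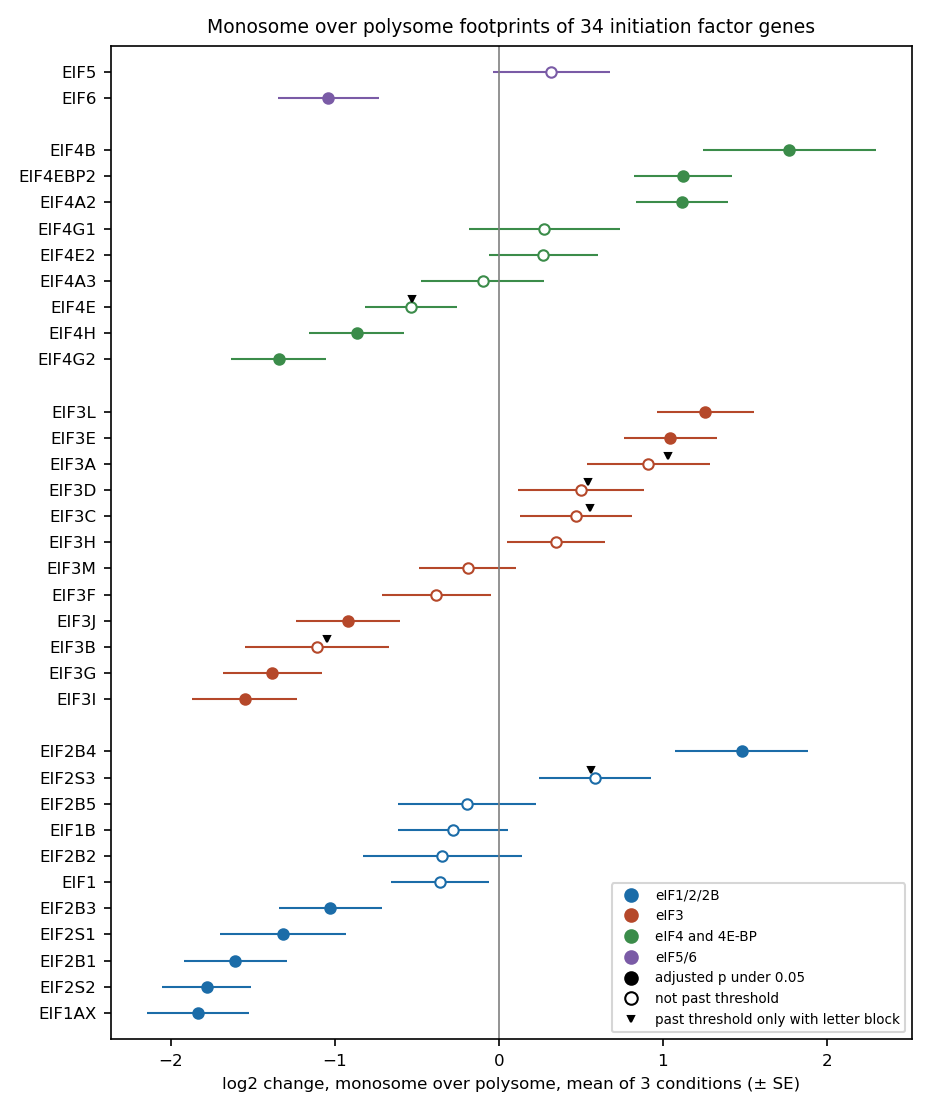
Log2 change of footprints, monosome over polysome, for the 34 member genes (x axis, mean of 3 conditions, bars are ± SE of the model without the letter block), sorted within each complex. Filled points passed the adjusted p of 0.05 and small black triangles mark the 6 genes that passed it only with the letter block; EIF1AX at -1.83 is the lowest and EIF4B at 1.77 the highest.

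In eIF1/2/2B the polysome side prevailed, with 5 of 11 genes lower in monosomes and 1 higher, and a median log2 change of -0.36. Among all tested genes 21.8% were lower and 17% higher. EIF1AX, which encodes eIF1A, had 208 to 562 scaled footprints in the monosome libraries (median 406) and 935 to 1742 in the polysome libraries (median 1421). The ranges did not overlap, and the level was 3.57-fold lower in monosomes (log2 -1.83 ± 0.31 SE, adjusted p = 0.000481). EIF2S2, the beta subunit of eIF2, had 98.5 to 238 (median 142) in monosomes and 402 to 578 (median 518) in polysomes, again without overlap. It was 3.44-fold lower in monosomes (log2 -1.78 ± 0.27 SE, adjusted p = 0.000225). EIF2S1, the alpha subunit that the stress kinases phosphorylate, had 64.3 to 98.2 in monosomes and 71.6 to 525 in polysomes. Its ranges overlapped, although monosomes were lower in all 6 pairs of 1 condition and letter (log2 -1.32 ± 0.38 SE, adjusted p = 0.0145). EIF2S3, the gamma subunit that binds GTP and the tRNA, went the other way. It was higher in monosomes in 6 of 6 pairs, by log2 0.59 ± 0.34 (SE), which passed only with the block (0.57 ± 0.24, adjusted p = 0.0443 against 0.188 without). Without serum starvation monosome B, its highest monosome library, the EIF2S3 change without the block fell to log2 0.076.

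The 5 subunits of eIF2B did not move together. EIF2B1, the alpha subunit, had 116 to 157 scaled footprints in monosomes and 289 to 628 in polysomes, with no overlap (log2 -1.61 ± 0.32 SE, adjusted p = 0.00137). EIF2B3, the gamma subunit, was 2.04-fold lower in monosomes (adjusted p = 0.0186), with overlapping ranges and 5 of 6 pairs lower. EIF2B4, the delta subunit, was 2.79-fold higher in monosomes (log2 1.48 ± 0.40 SE, adjusted p = 0.0104), in 6 of 6 pairs. It rests on a fragment of 234 nt and on few footprints, 231 in all 12 libraries, with 11.6 to 40.9 scaled footprints in monosomes and 6.04 to 16.1 in polysomes, ranges that overlap. EIF2B2 and EIF2B5, the beta and epsilon subunits, did not pass (log2 -0.35 ± 0.48 and -0.20 ± 0.42 SE). EIF1 and EIF1B, which encode near relatives with a role in start codon choice, did not pass either (-0.36 ± 0.30 and -0.28 ± 0.34 SE).

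In eIF3 the subunits lay on both sides, with 2 of 12 genes higher in monosomes and 3 lower, and a median of 0.08. With the block it was 5 higher and 4 lower. Among all tested genes 17% were higher and 21.8% lower, or 23.9% and 30.3% with the block. EIF3G and EIF3I, which with EIF3B form the module at the mRNA entry side of the subunit, were among the lower ones. EIF3I had 315 to 484 scaled footprints in monosomes (median 340) and 595 to 1465 in polysomes (median 1237), a 2.93-fold difference without overlap (adjusted p = 0.00186). EIF3G had 127 to 277 in monosomes and 389 to 687 in polysomes, also without overlap (2.60-fold, adjusted p = 0.00265), although the caller gave its ORF a p-value of 0.991. EIF3B ran from 223 to 750 in monosomes and from 260 to 1817 in polysomes, and passed only with the block (log2 -1.05 ± 0.25 SE, adjusted p = 0.000822, against 0.0574 without). EIF3J, a loosely bound subunit, was 1.89-fold lower in monosomes (adjusted p = 0.0316) and lower in 6 of 6 pairs.

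On the other side, EIF3E and EIF3L, subunits of the octamer that forms the body of eIF3, were higher in monosomes without overlap. EIF3E had 413 to 1051 scaled footprints in monosomes (median 639) and 221 to 396 in polysomes (median 287), a 2.07-fold difference (adjusted p = 0.00948). EIF3L had 264 to 519 in monosomes and 114 to 215 in polysomes (2.40-fold, adjusted p = 0.0043). EIF3A and EIF3C, the largest octamer subunits, and EIF3D, which can bind the cap of some mRNAs, were higher in monosomes only with the block, by log2 1.03 ± 0.24, 0.55 ± 0.23 and 0.54 ± 0.23 (SE). Their adjusted p were 0.000616, 0.0405 and 0.049 with the block and 0.0669, 0.288 and 0.317 without. EIF3F, EIF3H and EIF3M, which are octamer subunits too, did not pass in either model (log2 -0.38, 0.35 and -0.19). EIF3K, whose ORF lay partly outside its RefSeq gene, was lower in monosomes (log2 -0.91 ± 0.31 SE, adjusted p = 0.0318). EIF3C has a near-identical copy, EIF3CL, whose counts were 0.974 to 0.997 of those of EIF3C in each library, so the 2 genes could not be told apart.

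In eIF4 with the 4E-binding proteins 3 of 9 genes were higher in monosomes and 2 lower, with a median of 0.27. Among all tested genes 17% were higher and 21.8% lower. EIF4B, the RNA-binding partner of eIF4A, had 94.3 to 763 scaled footprints in monosomes (median 354) and 69.3 to 186 in polysomes (median 114). Its monosome values split by letter, with 94.3 to 154 in the A libraries and 554 to 763 in the B libraries, and the ranges of the fractions overlapped. The difference was 3.41-fold (log2 1.77 ± 0.53 SE, adjusted p = 0.0161) and in 6 of 6 pairs. EIF4A2, a paralogue of the main eIF4A helicase, had 192 to 357 in monosomes and 97.7 to 171 in polysomes, with no overlap (2.17-fold, adjusted p = 0.00654). EIF4A1, the main helicase, measured on a 762 nt ORF, was lower in monosomes (log2 -1.26 ± 0.41 SE, adjusted p = 0.0232). EIF4EBP2, a 4E-binding protein, had 67.4 to 151 in monosomes and 19.1 to 94.0 in polysomes (2.18-fold, adjusted p = 0.00887). The ranges overlapped, and it was higher in monosomes in 6 of 6 pairs. EIF4EBP1, the best known 4E-binding protein, had 214 to 648 in monosomes and 13.6 to 114 in polysomes, without overlap (7.77-fold, adjusted p = 0.000346), on an ORF with a caller p-value of 0.0127.

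EIF4G2, an eIF4G relative that does not bind eIF4E, had 445 to 991 scaled footprints in monosomes (median 735) and 1505 to 2120 in polysomes (median 1650). The ranges did not overlap, and the level was 2.54-fold lower in monosomes (adjusted p = 0.00245). EIF4H, which acts like eIF4B, had 325 to 474 in monosomes and 522 to 1005 in polysomes, again apart (1.82-fold lower, adjusted p = 0.0277). EIF4B and EIF4H, which share a role, therefore lay on opposite sides. EIF4E itself was lower in monosomes in 6 of 6 pairs but by only 1.45-fold, which passed only with the block (adjusted p = 0.047 against 0.14). EIF4A3, the helicase of the exon junction complex, EIF4E2, a cap-binding relative of eIF4E, and EIF4G1, the scaffold, did not pass (log2 -0.10, 0.27 and 0.28). In eIF5/6, EIF6, which keeps free large subunits from joining, had 63.5 to 124 in monosomes and 121 to 248 in polysomes and was 2.05-fold lower in monosomes (adjusted p = 0.0159). EIF5, the GTPase-activating factor of eIF2, did not pass (log2 0.32 ± 0.36 SE).

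**Figure D2:**
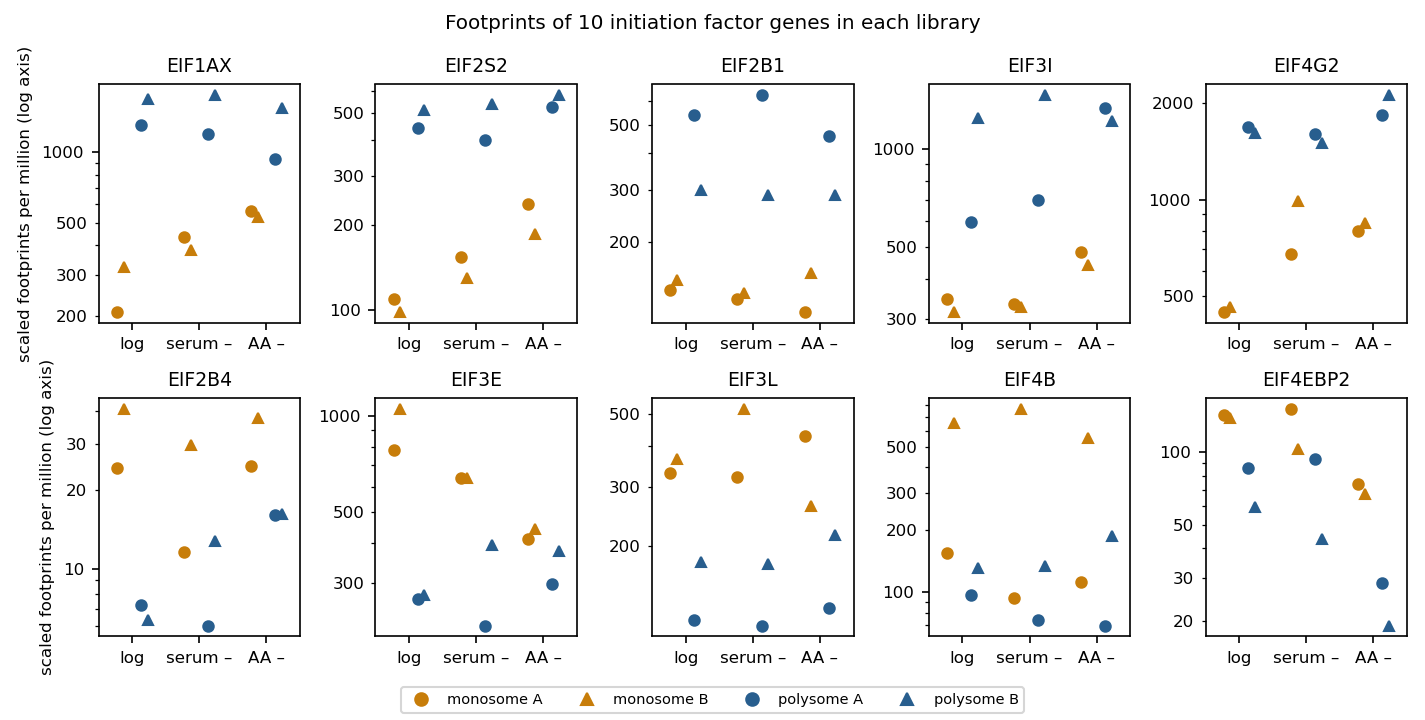
Scaled footprints (log axis, each panel with its own range) of 10 member genes in all 12 libraries; x axis: log phase (log), serum starvation (serum –) and amino acid starvation (AA –), monosomes in orange, polysomes in blue, circles for letter A and triangles for letter B. The upper 5 genes are higher in polysomes and the lower 5 in monosomes, and EIF4B monosomes split by letter.

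The calls depended on single libraries in part. Of the 17 genes 9 passed with any 1 library left out: EIF1AX, EIF2S2, EIF2B1, EIF3G, EIF3I, EIF3L, EIF4A2, EIF4G2 and EIF4EBP2. EIF4B fell to log2 0.94 (adjusted p = 0.188) without serum starvation monosome B, 1.24 (0.0926) without log phase monosome B and 1.14 (0.131) without amino acid starvation monosome B. EIF2B4 fell to 0.94 (adjusted p = 0.286) without serum starvation monosome B, and was 1.27 and 1.26 (0.0577 and 0.0649) without the B monosomes of log phase and amino acid starvation. EIF3E missed the threshold without those same libraries, log phase monosome B (0.90, adjusted p = 0.055) and amino acid starvation monosome B (0.92, 0.0555). EIF2S1 and EIF2B3 missed it when the polysome B library of log phase, amino acid starvation or serum starvation was left out (EIF2S1 -0.91, -0.96 and -0.88, EIF2B3 -0.70, -0.84 and -0.72). EIF6 did so without the polysome B library of log phase (-0.71) or of amino acid starvation (-0.88). EIF3J and EIF4H each missed it in 7 of 12 cases, all 3 polysome B libraries among them, at -0.63 to -1.05 and -0.55 to -0.96. EIF3A, which did not pass with all libraries, passed without any 1 of the polysome B libraries (1.22 to 1.41), and EIF3B without serum starvation monosome B, log phase polysome A or serum starvation polysome A (-1.30 to -1.60).

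Within a single condition the same comparison had 2 libraries a side. In log phase 5 of 34 genes passed, with 6.25% of all genes higher and 5.1% lower (11.4%). EIF2B4 (log2 2.29) and EIF3E (1.75) were higher in monosomes, and EIF1AX (-2.49), EIF2S2 (-2.20) and EIF4G2 (-1.87) were lower. In serum starvation EIF2S2 alone passed (-1.74, adjusted p = 0.0416), where 4.3% of all genes were higher and 2.54% lower (6.84%). After amino acid deprivation 0 members passed, where 5.56% and 1.55% of all genes did (7.11%). Of the 34, 12 had an unadjusted p under 0.05 there, as did 1251 of all 4765 genes. DESeq2 called 4 members there, and over all genes 471 higher and 161 lower. With the block 15 members passed in log phase, where 16.5% of all genes were higher and 17.9% lower (34.4%). It gave 12 under serum deprivation, where 14.4% and 14% were (28.4%), and 14 under amino acid deprivation, where 15.5% and 13.6% were (29.1%). EIF1AX, EIF2S2, EIF2B1 and EIF3I were lower, and EIF3L and EIF4B higher, in each of the 3 conditions with the block. EIF3B, which passed only in amino acid starvation, stood at -2.08 ± 0.45 (SE, adjusted p = 0.000869). EIF4E2 and EIF4EBP2 were 2.83-fold and 3.06-fold higher in monosomes in amino acid starvation (adjusted p = 0.0108 and 0.00864), EIF4EBP2 also in log phase (1.97-fold, adjusted p = 0.0396). The counts that follow are from fits without 1 library. Wherever a member count given there fell or rose, the count over all tested genes moved the same way, so the shift is not particular to the members. Without the block the log phase count was 0 without either log phase monosome library, 2 and 1 without its polysome A and B, 2 without either amino acid starvation monosome library, 3 without serum starvation monosome B or amino acid starvation polysome A, and 8 without serum starvation polysome B. The single serum starvation call was lost without any of the 6 monosome libraries or either amino acid starvation polysome library, and 3 passed without log phase or serum starvation polysome A. In amino acid starvation 3 and 2 passed without serum starvation polysome A and B. With the block the log phase count was 9 without its monosome A, polysome A or polysome B. The serum starvation count was 6 without its monosome A and 1 without its monosome B, and the amino acid starvation count was 3, 3 and 2 without its monosome B, polysome A and polysome B.

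Whether starvation changed the monosome over polysome ratio of a gene was tested as the difference between conditions. No member passed for amino acid starvation against log phase (0 of 34 in edgeR, 0 with an unadjusted p under 0.05, 0 in DESeq2). With the block 0 passed too, where 1.07% of all genes rose and 0.0839% fell (1.15%). In that model 6 members had an unadjusted p under 0.05, as did 645 of all 4765 genes. For serum starvation against log phase 0 of 34 passed in either model, with 0 members at an unadjusted p under 0.05 in both and 0 called by DESeq2. Of all genes 0.021% passed there with the block.

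The second comparison asks what 1 h without amino acids did to the polysome footprints of these genes. Without the block none of the 34 passed, nor did any of the 4765 tested genes, of which 411 had an unadjusted p under 0.05, 4 of them members. DESeq2 called 0 members, and over all genes 7 higher and 69 lower. With the block 6 of 34 members were higher after amino acid starvation and 1 was lower, where 5.14% of all genes were higher and 4.93% lower (10.1%). The 6 were 1 subunit of eIF2, 2 of eIF2B and 3 of eIF3, and the lower gene was EIF4EBP2. The median log2 change was 0.21 over the 34 genes and -0.08 over all genes. Each of the 7 calls was lost without log phase polysome A, amino acid starvation polysome A or amino acid starvation polysome B, where 8, 1 and 7 of all genes passed, against 480 with all libraries. EIF3C and EIF3D were lost without log phase polysome B too (adjusted p = 0.0503 and 0.0551).

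Of the 34 genes 10 had both starved polysome libraries above both log phase ones, and 3 had both below, where 14.9% and 17.5% of all genes did. In monosomes it was 11 and 7, where 22.1% and 22.8% of all genes did.

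EIF2S1 had 71.6 and 188 scaled footprints in the log phase polysome libraries A and B, and 213 and 525 after amino acid starvation. It was 2.87-fold higher with the block (log2 1.52 ± 0.40 SE, adjusted p = 0.0153, against 0.532 without), and both starved libraries lay above both log phase libraries. In monosomes it had 64.3 and 85.4 in log phase and 98.2 and 88.5 in starvation, which did not pass. EIF2B2 had 12.9 and 62.7 in log phase and 55.9 and 110 after starvation, so that the groups overlapped (log2 1.39 ± 0.42 SE with the block, adjusted p = 0.0322, against 0.642 without). EIF2B3 had 68.5 and 140 in log phase and 210 and 291 after starvation, without overlap (1.32 ± 0.37, adjusted p = 0.0212, against 0.521 without). EIF2B4 had 7.23 and 6.35 in log phase and 16.0 and 16.1 after starvation and did not pass (1.19 ± 0.48, adjusted p = 0.105). EIF2S2, EIF2S3 and EIF2B1 had changes of 0.21, -0.08 and -0.16, and EIF2B5 one of 0.62, and none passed. EIF1, EIF1AX and EIF1B lay below 0 (-0.58, -0.30 and -0.27) and did not pass.

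EIF3B had 260 and 805 scaled footprints in log phase polysomes and 1007 and 1817 after amino acid starvation. The groups did not overlap, and the level was 2.96-fold higher with the block (log2 1.57 ± 0.42 SE, adjusted p = 0.0172, against 0.589 without). EIF3D had 40.2 and 87.6 in log phase and 116 and 250 after starvation, without overlap (1.52 ± 0.37, adjusted p = 0.0105, against 0.545 without). EIF3C had 88.6 and 209 in log phase and 244 and 461 after starvation (1.29 ± 0.38, adjusted p = 0.0297, against 0.563 without), without overlap and with the doubt about its copy given above. The other 9 subunits of eIF3 did not pass and ranged from -0.13 for EIF3J to 0.74 for EIF3M, so that 10 of the 12 were above 0.

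EIF4EBP2 had 85.8 and 59.5 scaled footprints in log phase polysomes and 28.8 and 19.1 after amino acid starvation. It was 3.03-fold lower with the block (log2 -1.60 ± 0.37 SE, adjusted p = 0.00754, against 0.42 without), with no overlap. In monosomes it had 142 and 138 in log phase and 73.5 and 67.4 in starvation, which also did not overlap but did not pass. EIF4EBP1 went from 98.4 and 35.4 to 38.8 and 13.6 in polysomes (-1.37 ± 0.47 with the block, adjusted p = 0.0573), and EIF4A1 from 441 and 1309 to 1261 and 2753 (1.25 ± 0.48, adjusted p = 0.0856), and neither passed. The remaining 8 members of the eIF4 group, and EIF5 and EIF6, did not pass, with changes of -0.98 (EIF4E2) to 0.97 (EIF4A3). Of the 6 members with a tract among those whose RefSeq start was read, EIF3D alone passed, upward. EIF2S3, EIF3F, EIF3M, EIF4A2 and EIF4B had changes of -0.08, 0.13, 0.74, -0.11 and -0.10, and EIF3K, outside the count, had -0.42. Across the 34 genes the change correlated with the length of the called ORF with a Spearman rho of 0.442 with the block and 0.448 without, over genes that share the same 4 libraries. Its part in the result was not tested.

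**Figure D3:**
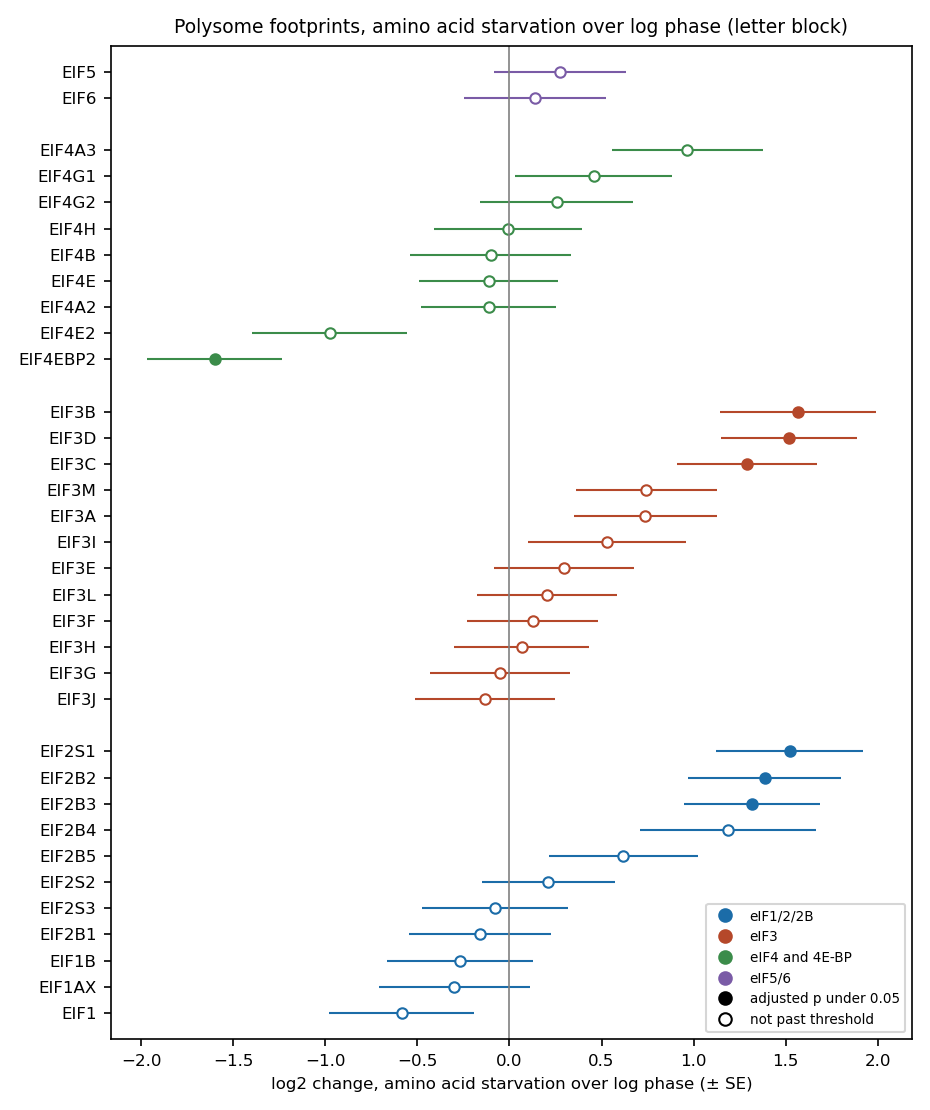
Log2 change of polysome footprints, amino acid starvation over log phase, for the 34 member genes (x axis, bars are ± SE of the model with the letter block), by complex. Filled points passed the adjusted p of 0.05: 3 genes of eIF1/2/2B and 3 of eIF3 above 0, and EIF4EBP2 below 0 at -1.60.

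The other starvation comparisons gave no call among the members. In polysomes after serum starvation 0 of 34 passed with or without the block, as did 0 of all genes, with 0 members at an unadjusted p under 0.05 in either edgeR model and 0 called by DESeq2. The changes without the block lay between -0.29 and 0.61. In monosomes 0 of 34 passed after amino acid starvation (1 and 4 with an unadjusted p under 0.05 without and with the block, 0 in DESeq2), where 0.63% of all genes were higher and 0.399% lower with the block (1.03%). Of all 4765 genes 240 and 523 had an unadjusted p under 0.05 there. After serum starvation 0 of 34 passed in monosomes (0 and 2 with an unadjusted p under 0.05, 0 in DESeq2), where 0.021% of all genes were higher with the block. Of all 4765 genes 84 and 273 had an unadjusted p under 0.05 there. All starvation comparisons of a fraction use the same log phase libraries.

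The share of coding footprints held by each complex was set beside these values as a description. The 11 genes of eIF1/2/2B held 0.186% ± 0.0381 (SD, n = 6) in monosomes and 0.371% ± 0.0977 in polysomes, and the highest monosome library (0.249%) lay below the lowest polysome library (0.256%). The 12 genes of eIF3 held 0.365% ± 0.089 and 0.484% ± 0.232, with wide overlap. The 9 genes of the eIF4 group held 0.309% ± 0.0666 and 0.403% ± 0.0847, and EIF5 with EIF6 0.0277% ± 0.00545 and 0.0349% ± 0.0163. The order of the fractions turned for eIF3 with CDS-type ORFs alone (0.481% in monosomes, 0.397% in polysomes), and for eIF3 (0.522%, 0.505%) and EIF5 with EIF6 (0.0422%, 0.0410%) with a stricter caller p. All 34 together held 0.888% ± 0.193 in monosomes and 1.29% ± 0.423 in polysomes. In polysomes the eIF3 share was 0.195% and 0.539% in log phase (A and B), 0.214% and 0.687% without serum, and 0.529% and 0.742% without amino acids. The gap between letters in log phase and serum starvation was larger than the step from log phase B to amino acid starvation B. In the A libraries the same step, from 0.195% to 0.529%, was near the log phase gap between letters, from 0.195% to 0.539%.

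**Figure D4:**
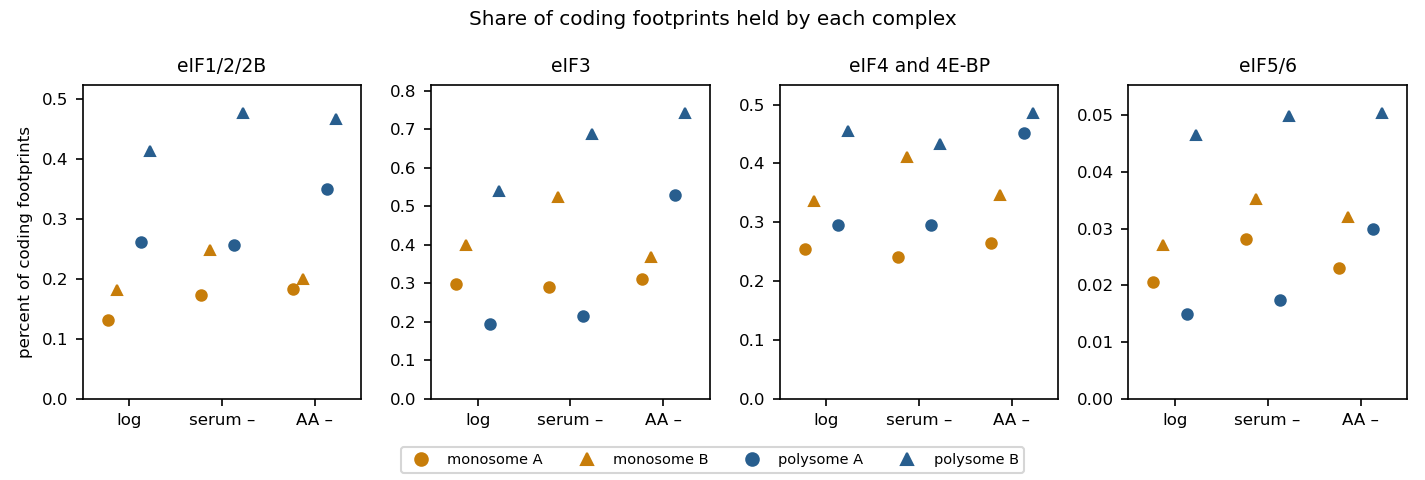
Percent of coding footprints held by the genes of each complex in all 12 libraries (y axes start at 0 and differ between panels); x axis: log phase (log), serum starvation (serum –) and amino acid starvation (AA –), monosomes in orange, polysomes in blue, circles for letter A, triangles for letter B. Polysomes lie above monosomes without overlap in eIF1/2/2B alone, and polysome B lies above polysome A in every condition and complex.

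Levels of different genes were compared per length, as footprints per 1000 nt of called coding sequence per 1000000 coding footprints. In polysomes EIF1AX was the highest of the 34 genes at 3325 ± 1144 (SD, n = 6), followed by EIF1 at 1334 ± 170, EIF3I at 1186 ± 536 and EIF4H at 1026 ± 373. The last 3 did not differ beyond their spread. Outside the 34, EIF4A1 stood at 1953 ± 1429, EIF3K at 1075 ± 245 and EIF4EBP1 at 112 ± 67.8. EIF4E, the cap-binding factor, stood at 822 ± 205, EIF4G2 at 633 ± 165, EIF2S2 at 511 ± 150, EIF2S1 at 259 ± 207 and EIF2S3 at 227 ± 89.5. The lowest were EIF2B4 at 48.5 ± 27.2, EIF2B2 at 59.7 ± 43.0 and EIF4G1 at 60.9 ± 44.0, which also lay within each other's spread. The eIF3 subunits are built into the complex in equal numbers, apart from the loosely bound EIF3J. Their densities ran from 1186 for EIF3I to 66.4 ± 43.9 for EIF3A. EIF3G stood at 665 ± 238, EIF3B at 459 ± 331, EIF3E at 236 ± 86.6 and EIF3C at 95.4 ± 63.6. The counts of EIF3C could not be told apart from those of its copy EIF3CL, so its density is in doubt. In monosomes EIF1 (1068 ± 339) and EIF1AX (946 ± 298) were highest of the 34 and within each other's spread. Outside the 34, EIF4EBP1 stood at 913 ± 342 there, EIF4A1 at 718 ± 160 and EIF3K at 600 ± 329. Many called ORFs are parts of the coding sequence. The leading ORF was of the caller's type CDS in 14 genes, Trunc in 16 and Variant in 4, it began with ATG in 17 of 34, and a codon in a part left out is not in the density.

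Upstream ORFs were examined because the leader of an initiation factor mRNA is itself a site of control. The authors' software called uORFs that end before the coding sequence, and uoORFs, its type for those that run into the annotated coding sequence. The 34 genes had 39 uORFs in 15 genes and 29 uoORFs in 21 genes. The uORFs held 3.27 ± 1.30 footprints per 100 coding footprints of the members in monosomes and 4.39 ± 1.09 in polysomes (SD, n = 6). The uoORFs held 17.1 ± 15.5 and 7.24 ± 2.21. Over all genes the uORFs held 9.94 ± 2.33 and 5.63 ± 2.10, and the uoORFs 10.6 ± 7.04 and 6.13 ± 1.84. The 12 upstream ORFs with the most footprints were compared between fractions by an exact two-sided permutation of the fraction labels within each condition, with Benjamini-Hochberg adjustment over the 12. The smallest p this can give is 0.00926. They were picked for their depth, not for a difference, and the test was chosen after the data were seen.

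Of the 12, 3 passed. The test was not run on upstream ORFs of other genes, so no share over all genes stands beside this count. With swaps within pairs of 1 condition and letter none of the 3 passed (adjusted exact permutation p = 0.075 each). Each of the 3 had the smallest p that swaps can give, 0.0312 before adjustment, so this test had no room for a lower one. The 483 nt uoORF of EIF5 (span hg38 chr14:103334259-103335924, plus strand, called start AGG) had 43.9 and 25.4 footprints per 100 coding footprints in the log phase monosomes A and B, 21.1 and 16.1 after serum deprivation, then 38.9 and 10.3 without amino acids. In polysomes it had 135 and 53.7, 128 and 57.5, and 192 and 50.0. All polysome values lay above all monosome values, with 59.0 footprints in all in monosomes and 2010 in polysomes, and with means of 103 ± 58.1 and 25.9 ± 13.1 (SD, n = 6 each, adjusted exact permutation p = 0.037). The 198 nt uoORF of EIF4E (chr4:98891271-98929123, minus strand, called start ATC) went the other way. It had 85.4 ± 59.6 in monosomes, from 34.7 to 202, and 29.7 ± 10.3 in polysomes, from 13.0 to 41.9, with overlapping ranges but higher monosome values in 6 of 6 pairs (n = 6 each, adjusted exact permutation p = 0.037). Without serum starvation monosome A, the highest at 202, the monosome mean was 62.1 ± 19.5. The 219 nt uoORF of EIF3G (chr19:10118915-10119864, minus strand, called start TTG) had 79.9 ± 99.6 in monosomes and 14.4 ± 8.14 in polysomes, also higher in monosomes in 6 of 6 pairs (n = 6 each, adjusted exact permutation p = 0.037). Serum starvation monosome A, at 280, set much of that mean, which was 40.0 ± 20.7 without it, and the ranges overlapped.

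**Figure D5:**
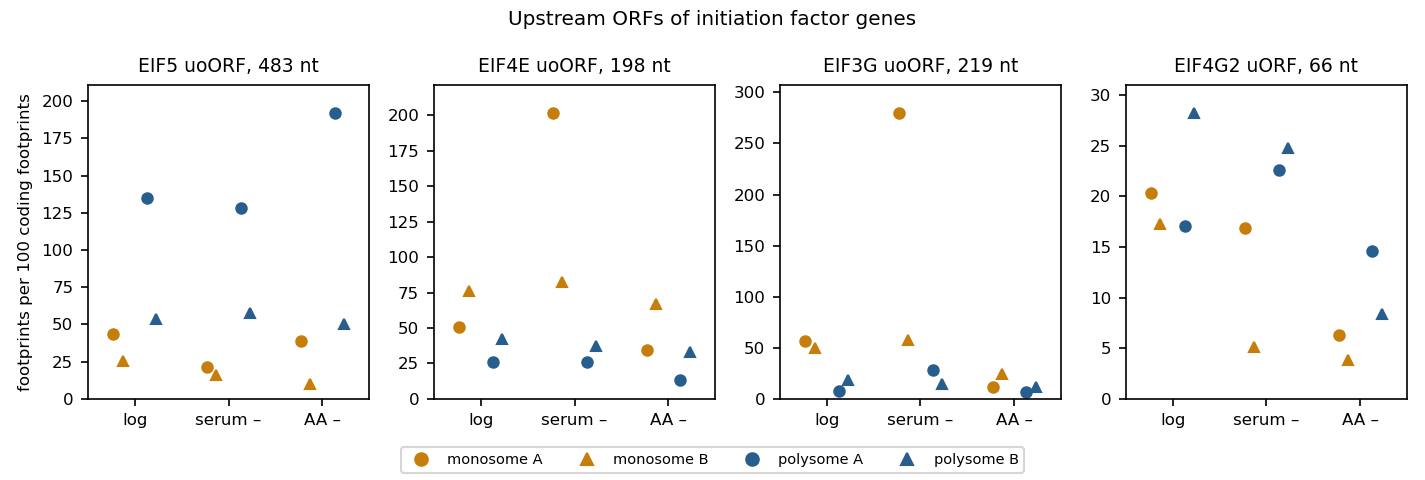
Footprints in 4 upstream ORFs per 100 footprints of the gene's coding ORF in all 12 libraries (y axes start at 0 and differ between panels); x axis: log phase (log), serum starvation (serum –) and amino acid starvation (AA –), monosomes in orange, polysomes in blue, circles for letter A, triangles for letter B. The EIF5 ORF is higher in polysomes throughout, and the EIF4E and EIF3G ORFs are higher in monosomes in 6 of 6 pairs.

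The most abundant upstream ORF, a 66 nt uORF of EIF4G2 (chr11:10808854-10808919, minus strand, called start GTG), held 5809 footprints. It had 11.6 ± 7.29 per 100 coding footprints in monosomes and 19.2 ± 7.31 in polysomes (SD, n = 6 each, adjusted exact permutation p = 0.0635). Its group means were lowest in amino acid starvation in both fractions, with 6.29 and 3.85 in monosomes and 14.6 and 8.33 in polysomes, against 20.3 and 17.2, and 17.1 and 28.2, in log phase and 16.9 and 5.11, and 22.5 and 24.7, in serum starvation. This was not tested. A 240 nt uORF of EIF5 had 13.7 ± 7.71 in monosomes and 26.9 ± 10.9 in polysomes (n = 6 each, adjusted exact permutation p = 0.0635). The uoORFs of EIF3E and EIF4H were higher in monosomes in 6 and 5 of 6 pairs without passing (n = 6 each, adjusted exact permutation p = 0.0556 and 0.0635). The other 5 comparisons, in EIF1, EIF1AX, EIF4G1 and EIF4G2, gave no difference past the threshold. The caller gave p-values of 0.103, 0.00485 and 0.843 to the EIF5, EIF4E and EIF3G ORFs that passed. The coding ORF of EIF5 was a 714 nt ORF that begins downstream of the whole span of its uoORF, so its ratio sets footprints of separate places beside each other. The spans of the EIF4E and EIF3G uoORFs overlap those of their coding ORFs.

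Other genes of the pathway were taken from 3 lists, of which 21 of 36 genes were tested. Of 4 tested genes of the eIF2 kinases and their response, ATF4, the transcription factor translated when eIF2 is phosphorylated, was higher in monosomes (log2 2.10 ± 0.37 SE, adjusted p = 0.000633). EIF2AK2, the kinase PKR, was lower (-1.05 ± 0.37, adjusted p = 0.0364). Of 5 tested growth signalling genes RPS6KB1, the S6 kinase, was lower in monosomes (-1.40 ± 0.33, adjusted p = 0.00438) and MKNK2, an eIF4E kinase, higher (1.01 ± 0.35, adjusted p = 0.0323). With the block LARP1, which binds TOP mRNAs, was lower too (-1.35 ± 0.54, adjusted p = 0.0367). Of 12 tested helpers of initiation 4 were higher and 3 lower, and over the 21 genes it was 6 and 5, or 6 and 8 with the block. Of all genes 17% were higher and 21.8% lower, or 23.9% and 30.3% with the block. The call of EIF2AK2 was lost in 8 of 12 fits that left out 1 library (adjusted p up to 0.149) and that of MKNK2 in 4 of 12, those without a log phase monosome library or without the B monosomes of either starvation (up to 0.349). LARP1 lost its call in 5 of 11 such fits with the block (up to 0.118). PABPC1, the poly(A)-binding protein and itself a TOP mRNA, was at log2 3.70 ± 0.56 (adjusted p = 0.000215) and MCTS1, which acts with DENR in reinitiation, at -1.36 ± 0.28 (adjusted p = 0.00169). CDC123, an eIF2 assembly factor, was at -1.16 ± 0.28 (adjusted p = 0.00469) and DENR at 1.31 ± 0.32 (adjusted p = 0.00583). MCTS1 and DENR, partners in 1 complex, thus lay on opposite sides.

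In polysomes after amino acid starvation 0 of the 21 passed without the block (0 in all 4765 genes), and 3 passed with it, where 5.14% of all genes were higher and 4.93% lower (10.1%). PDCD4, an inhibitor of eIF4A, rose by log2 1.53 ± 0.39 (SE, adjusted p = 0.0139). DDX3X, a helicase that helps scanning, rose by 1.27 ± 0.41 (adjusted p = 0.0446). MKNK2 was lower (-1.38 ± 0.44, adjusted p = 0.0397). All 3 calls were lost without log phase polysome A (adjusted p = 0.297, 0.424 and 0.569), amino acid starvation polysome A (0.107, 0.110 and 0.329) or B (0.187, 0.425 and 0.223). DDX3X and MKNK2 lost theirs without log phase polysome B too (0.0952 and 0.0589), and DDX3X without either serum starvation monosome library (0.0554 and 0.0663). ATF4 did not pass there (0.15 ± 0.39 with the block, adjusted p = 0.851).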

How the data were processed

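Ribosome footprints of 12 HEK293 libraries (6 groups of 2) came in 1 table of 149028 ORFs. Its values are expected counts that the authors deposited from the ORF caller PRICE, per the file name, with a p-value per ORF, also deposited by the authors. The submitters' processing notes name Bowtie 1.0 and hg38 without a role. Coding types were taken first, then higher totals, with no codon used again, which kept 124829 ORFs (7031 coding, 6375 genes). Of these genes 5894 were named by position through RefSeq (GRCh38.p14), 219 lay inside several genes and 262 inside none. Each gene's expected counts were added up and then rounded.

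After filterByExpr (minimum count 10, total 15) and TMM scaling, edgeR 4.0.16 in R 4.3.3 gave quasi-likelihood tests over 6 groups, 10 contrasts, two-sided, Benjamini-Hochberg over 4765 genes. Scaled footprints are counts per 1000000 of TMM-scaled library size. The scripts were tested on simulated data. The main model has no block. The columns' letters A and B are tied to no numbered replicate in the labels. Between groups, the differences of B from A correlated with r of 0.161 to 0.866 in 15 of 15 pairs of groups. The r was 0.770 to 0.866 between polysome groups and only 0.161 to 0.422 in pairs that include a monosome group. The letters were taken as pairs, and blocked values are given where they change a call. The biological coefficient of variation was 0.433 without and 0.272 with the block. Alternatives were RLE scaling, DESeq2 1.42.0, no filter, CDS-type ORFs, ORFs with a caller p under 1e-04, thinning to 119885 footprints, and leaving out each library. ORF naming by single position, blocked fits without a library and the upstream ORF tests were added after the data were seen. Footprints were amplified with no molecular identifiers stated in the sources used here, so read counts are not independent molecules.

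All 39 genes could be named. Those that passed with or without the block get values, the rest a range, and up to 4 genes per pathway list with the smallest p. The members and lists were chosen with earlier results of these data known.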

Additional observations from a re-analysis of the deposited data

Results flagged for a closer look

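In 108 sets of 6 libraries of a fraction (each gene's scaled footprints, each upstream ORF, each complex share), 11 had a highest library far from the other 5. Chance alone flags about 1 set in 20, and the sets share libraries.

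Serum starvation monosome A, the library with the fewest coding footprints, stood highest in 4 uoORFs: EIF4E at 202 footprints per 100 coding (median of the 6 monosome libraries 71.7), EIF3G at 280 (53.1), EIF3E at 194 (25.0) and EIF4H at 57.5 (11.1). In polysomes serum starvation A stood highest for EIF3E, at 25.7 (10.2). A 33 nt uORF of EIF4G2 reached 9.26 in log phase monosome A.

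Among coding levels, serum starvation monosome B stood highest for EIF2S3 at 1016 scaled footprints (423), EIF3A at 418 (244) and EIF4G1 at 367 (154). Amino acid starvation B stood highest for EIF3K at 931 (373) in monosomes and for EIF2B5 at 47.8 (23.9) in polysomes. No changed monosome over polysome ratio between conditions passed its test.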

How the results depend on the processing

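The direction of single genes held in most settings, while the calls of many genes depended on 1 library, as given above. The counts moved with the ORF set, the block and the libraries. Over all genes the counts moved with the libraries too. For monosome over polysome averaged over conditions, 17 of 34 genes passed; RLE scaling, DESeq2, no filter and thinning gave 15, 18, 18 and 12, CDS-type ORFs gave 7 of 18 and the stricter caller p 10 of 28. RLE scaling moved the median of all genes by 0.14 (log2). In log phase (5 passed) DESeq2 gave 8, the replicate block 15, CDS-type ORFs 3 and the stricter p 3. In serum starvation (1 passed) DESeq2 gave 5, no filter 2, the block 12, and RLE scaling, CDS-type ORFs, the stricter p and thinning 0. In amino acid starvation (0 passed) DESeq2 gave 4 and the block 14. In amino acid starvation polysomes (0 passed) the block gave 7. The pairing by letter changed no count in the other 5 contrasts, all at 0.

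Leaving out 1 library gave 12 to 18 genes for the mean over conditions, 0 to 8 in log phase, 0 to 3 in serum starvation and 0 to 3 in amino acid starvation, and 0 in the other 6 contrasts. With the block it gave 18 to 23, 9 to 15, 1 to 14 and 2 to 16, and 0 to 8 for amino acid starvation polysomes.

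With CDS-type ORFs alone the monosome shares were 0.301% (eIF1/2/2B), 0.481% (eIF3) and 0.729% (eIF4 group), and the polysome shares 0.397% (eIF3), 0.737% (eIF4 group) and 0.0662% (EIF6 alone). With the stricter p the monosome shares were 0.522% (eIF3), 0.451% (eIF4 group) and 0.0422% (EIF5 and EIF6), and the polysome shares 0.505%, 0.467% and 0.0410%. Without 1 library no share moved by more than its SD.

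Of the genes below the threshold in the mean contrast, EIF4A3 turned to 0.021 under RLE scaling and DESeq2, 0.012 with CDS-type ORFs and 0.20 with the stricter p, and EIF3M to 0.11 with the stricter p. Without 1 library EIF4A3 ran from -0.30 to 0.37, EIF3M from -0.35 to 0.11, EIF1B from -0.47 to 0.049, EIF2B2 from -0.71 to 0.28, EIF2B5 from -2.86 to 0.13 and EIF4G1 from -0.38 to 0.83. The 3 upstream ORFs that passed had an adjusted p of 0.075 under swaps within letter pairs. Each was at the smallest p possible there, 0.0312 before adjustment. The causes were not tested.

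The shallowest library held 119885 coding footprints, and thinning all libraries to it gave 12 genes past the threshold in place of 17. EIF2B4 had 231 footprints in all.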
